A study of Mus musculus with 30 samples.

Results

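Expression of 10 genes of the Notch pathway was followed through the exit of mouse induced pluripotent stem cells (iPSCs) from pluripotency and through their return to pluripotency-supporting medium. The 10 genes were taken by symbol from the 22477 genes of the deposited RNA-seq table, and each symbol was found there once. They are the receptors Notch1, Notch2 and Notch3, the ligands Dll1, Dll3 and Jag1, and the target genes Hes1, Hes5, Hey1 and Heyl. The rule uses gene symbols alone.

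Notch signalling acts between neighbouring cells. A ligand of the Delta or Jagged family on 1 cell binds a Notch receptor on the next, and the receptor is cleaved by Adam metalloproteases and then by gamma-secretase. The released intracellular part enters the nucleus, joins the DNA-binding protein Rbpj and a Mastermind co-activator, and switches on genes of the Hes and Hey families. These encode basic helix-loop-helix repressors, which hold back differentiation genes in many progenitor cells. In the mammalian embryo the pathway is best known for its part in neural progenitors, in the segmentation of the presomitic mesoderm and in blood vessels.

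The cells were secondary iPSCs that carry doxycycline (dox)-inducible transgenes for Oct4, Sox2, Klf4 and c-Myc (OSKM), GFP at the endogenous Nanog locus and a constitutive nuclear RFP, and all 15 conditions share this background. The 7 conditions of the time course are 0, 24, 36, 48, 60, 72 and 96 h of differentiation, in which 0 h is the state in 2i/LIF (LIF with inhibitors of GSK3 and MEK in serum-free N2B27) and the later times are in N2B27 alone. For the 8 other conditions, cells taken at 0, 24, 48 or 96 h were given serum/LIF for 48 h after re-seeding, without dox (–dox) or with it to induce OSKM (+dox). Each condition had 2 replicates, 30 samples in all, of polyadenylated RNA, and the study describes its replicates as biological. The authors combined both replicates into 1 value per gene and condition, in FPKM (fragments per kilobase of transcript, scaled to the sequenced library), so a value given here has no spread and no difference was tested. A gene was counted as changed, and is said to have risen or fallen, when 2 values were at least 2-fold apart and the higher reached 1 FPKM. Beside each count stands the background, the share that meets the same rule among all genes of the table with at least 1 FPKM in the conditions compared. The number of members that reached 1 FPKM there is given too, since the others could not be counted, and no difference from the background was tested.

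The state of the cells was checked against markers. The summed level of 8 naive pluripotency genes, among them Nanog, Esrrb and Zfp42, fell over the time course from 1062.1 to 36.2 FPKM, and 5 formative genes such as Fgf5 and Otx2 reached their highest sum at 48 h, with 806.3 FPKM, of which Dnmt3b made up 585.5 FPKM. The 12 fibroblast genes summed to 1087.9 FPKM at 0 h, where 11 of them reached 1 FPKM, to between 59.6 and 160.3 FPKM at the later timepoints and to between 87.9 and 256.6 FPKM in the re-seeded conditions. Fn1, which many other cells also express, led the list in each condition, so the sum of the other 11 is used below. It went from 793.9 FPKM at 0 h to 74.0 at 24 h, and stayed between 21.9 and 40.8 FPKM after that. In the re-seeded conditions it was 152.1 FPKM in 96 h –dox and between 6.78 and 25.3 FPKM in the other 7. The iPSCs were maintained on embryonic fibroblast feeders, and the part of such cells in the 0 h values was not tested. In bulk RNA, fewer cells of a type cannot be told apart from less RNA per cell. Of the presomitic mesoderm and streak genes, Msgn1 was listed at 0 in 14 of the 15 conditions, and the list of 6 summed to no more than 9.36 FPKM. That highest sum was in 48 h –dox, where T made up 5.90 FPKM, against 0.0653 FPKM at 48 h. Eomes was highest at 0 h, with 3.01 FPKM.

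Promoter sequences of 7 of the 10 genes are in the RefSeq table for GRCm38.p6, and Hes1, Hey1 and Heyl are not in it. Each window runs from 250 bases before to 50 bases after a transcript start. Of the 8 windows, 3 are printed, for the target with Rbpj motifs and for the pair of ligands that rose together during differentiation. The Hes5 window is at chr4:154960673-154960972 on the plus strand. The printed Dll1 window is at chr17:15375774-15376073 and the Dll3 window at chr7:28301736-28302035, both on the minus strand. Each is written 5′ to 3′ on the strand of its gene, and capitals mark motif matches, which are the Rbpj motif GTGGGAA or its reverse complement TTCCCAC in Hes5 and the octamer ATTTGCAT, the motif of Oct4 and related POU factors, in Dll1.
Hes5: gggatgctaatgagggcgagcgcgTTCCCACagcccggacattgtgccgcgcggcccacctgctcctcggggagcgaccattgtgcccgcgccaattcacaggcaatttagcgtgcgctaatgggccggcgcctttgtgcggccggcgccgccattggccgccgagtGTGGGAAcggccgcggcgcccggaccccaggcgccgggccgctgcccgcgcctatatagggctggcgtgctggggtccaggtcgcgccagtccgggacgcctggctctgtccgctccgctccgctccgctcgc
Dll1: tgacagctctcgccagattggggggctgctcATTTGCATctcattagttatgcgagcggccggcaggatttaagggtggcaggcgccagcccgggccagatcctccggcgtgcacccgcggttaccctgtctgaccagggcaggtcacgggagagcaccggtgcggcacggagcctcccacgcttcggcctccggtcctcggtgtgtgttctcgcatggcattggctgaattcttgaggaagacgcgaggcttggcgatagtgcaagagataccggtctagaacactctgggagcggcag
Dll3: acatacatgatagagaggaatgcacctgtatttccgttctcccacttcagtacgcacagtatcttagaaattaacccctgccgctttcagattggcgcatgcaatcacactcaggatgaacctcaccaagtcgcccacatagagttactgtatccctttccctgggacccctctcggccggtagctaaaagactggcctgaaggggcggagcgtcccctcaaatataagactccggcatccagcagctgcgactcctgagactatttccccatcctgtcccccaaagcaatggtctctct
The search covered both strands for GTGGGAA, for its shorter core TGGGAA, which lies within it, and for ATTTGCAT. Hes5 holds the longer Rbpj motif at 2 places, which begin at bases 25 and 168 of the window and lie in opposite orientations. Of all 32851 promoter windows of this length, 6.38% hold GTGGGAA, 25.6% hold TGGGAA and 1.74% hold the octamer. The Dll1 octamer begins at base 32, and no motif of the 3 was found in the Dll3 window or in the other 5 windows, including that of another Dll1 start. The printed Dll1 window lies inside the gene, whose annotated 5′ end is at 15376872. The other Dll1 window, at chr17:15376883-15377182, lies just upstream of that end and holds no octamer. A match describes the letters of the window only, and binding was not measured here.

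Over the time course, 7 of the 10 genes, 8 of which reached 1 FPKM, changed between at least 1 pair of timepoints, against a background of 60.7%. The 7 are Notch2, Notch3, Dll1, Dll3, Jag1, Hes1 and Hes5. Without the 0 h timepoint, where fibroblast genes were highest, the same 7 genes changed, against a background of 51.7%. Between 0 and 96 h, 6 of the 10 changed, 8 of which reached 1 FPKM, against a background of 33.3%. Notch2, Notch3, Dll1, Dll3 and Hes5 were higher at 96 h and Jag1 was lower. The median log2 ratio of 96 to 0 h was 1.35 over the 7 members that reached 1 FPKM and had a ratio. That of all genes reaching 1 FPKM was -0.02. Hey1 and Heyl, under 1 FPKM at both times and left out of this median, had log2 ratios of 0.09 and -1.88. At 24 h, 3 of the 10 had changed from 0 h, against a background of 23.0%, and at 48 h it was 5 of the 10, against 29.2%, with 7 reaching 1 FPKM each time.

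**Figure D1:**
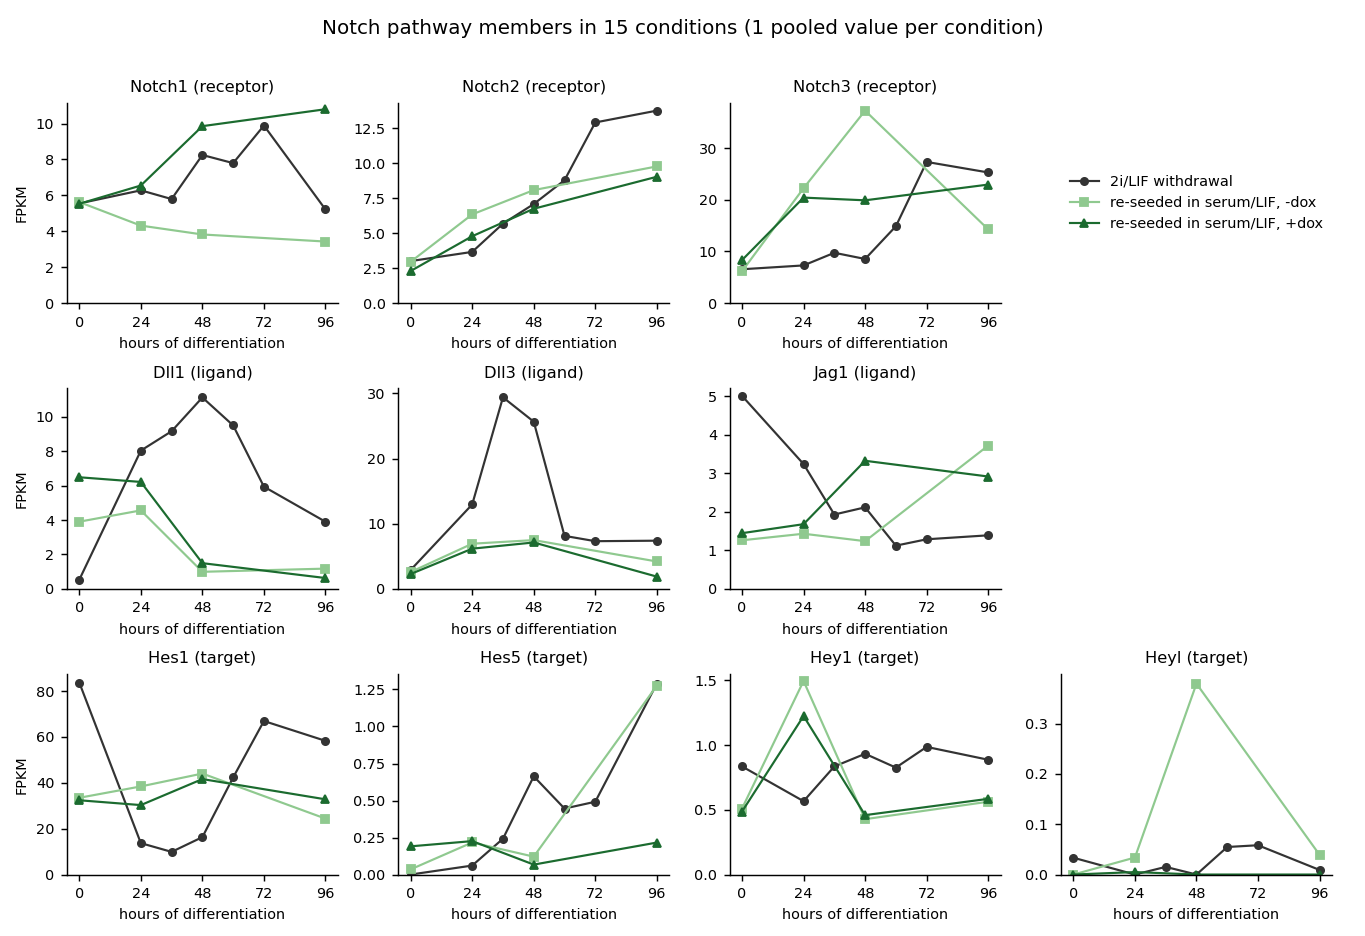
Level of each of the 10 genes in FPKM against hours of differentiation, with black circles for the time course, light green squares for –dox and dark green triangles for +dox. Each point is 1 pooled value with no error. Dll1 and Dll3 peak at 48 and 36 h, where Hes1 is near its lowest value, and Notch1 separates by dox at 48 and 96 h.

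Dll1 and Dll3 rose together in the first 2 days and then fell. Dll1, a ligand that activates Notch on neighbouring cells, lies on chromosome 17 of mm10 (15367354 to 15376872, minus strand). Its levels at 0, 24, 36, 48, 60, 72 and 96 h were 0.527, 8.04, 9.17, 11.1, 9.51, 5.94 and 3.90 FPKM. The 0 h value is the lowest of all 15 conditions and the 48 h value the highest, a 21.1-fold difference. Dll3, a divergent Delta family member that acts inside the cell and inhibits Notch in the segmenting mesoderm, lies on chromosome 7 (28293553 to 28302238, minus strand). Its levels at the same timepoints were 2.89, 13.0, 29.4, 25.7, 8.13, 7.31 and 7.39 FPKM. Dll3 thus peaked at 36 h, earlier than Dll1, and had lost most of the rise by 60 h while Dll1 had not. The ratio of Dll3 to Dll1 was 3.21 at 36 h and 0.855 at 60 h. The rise of both went with that of the formative genes, whose sum went from 46.2 to 781.9 FPKM by 36 h. A list of 8 neurectoderm genes rose over these 2 days too. Its sum went from 22.0 FPKM before differentiation to 69.2 FPKM at 48 h, the highest of the time course, by way of 47.5 FPKM when Dll3 peaked. Sox3, a gene of that list, went from 0.959 to 28.0 FPKM by 48 h. The 6 streak genes summed to between 1.51 and 2.33 FPKM from 24 h on. The part of either cell state in the rise of Dll1 and Dll3 was not tested.

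Jag1, a Jagged family ligand located on chromosome 2 (137081456 to 137116644, minus strand), moved the other way. In order of time its levels were 5.00, 3.24, 1.93, 2.11, 1.12, 1.28 and 1.39 FPKM. From 0 to 96 h Jag1 fell by 1.85 on the log2 scale. Fibroblast genes fell over the same interval, and their part in the Jag1 value at 0 h was not tested. From 24 to 60 h Jag1 fell from 3.24 to 1.12 FPKM, and the sum of the 11 fibroblast genes went from 74.0 to 21.9 FPKM. The 3 ligands together rose from 8.43 FPKM at 0 h, where Jag1 made up 59.4%, to 40.5 FPKM at 36 h, where Dll3 made up 72.6%, and stood at 12.7 FPKM at 96 h.

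Hes1, the repressor that most tissues use as the main Notch readout and that other signals also induce, lies on chromosome 16 (30064384 to 30067796, plus strand) and had the highest level of the 10 genes at all timepoints but 36 and 48 h, where Dll3 was higher. In order of time its levels were 83.7, 13.7, 9.88, 16.3, 42.3, 66.9 and 58.3 FPKM. Hes1 therefore fell 6.11-fold in the first 24 h, was lowest at 36 h and was back at a level within 2-fold of the start by 60 h. The low of Hes1 coincided with the peak of Dll3, and across the 15 conditions Pearson's r of log2(FPKM + 1) between these genes was -0.59, the most negative of the 45 pairs of members. The conditions share cells and a time axis, so this r is a description. The fall from 0 h went with a fall of the 11 fibroblast genes from 793.9 to 74.0 FPKM, and their part was not tested. At 72 h Hes1 stood at 66.9 FPKM with that sum at 22.0 FPKM.

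The other targets were low. Hes5, the Hes gene of neural progenitors (chromosome 4, 154960923 to 154962371, plus strand), is the gene whose promoter carries the Rbpj motifs printed above. It was listed at 0 at 0 h and at 0.0606, 0.242, 0.663, 0.446, 0.492 and 1.29 FPKM at 24, 36, 48, 60, 72 and 96 h. Only the 96 h value reached 1 FPKM, and no fold is given against a value listed at 0. Hey1, a Hes-related repressor used in vessels and heart (chromosome 3, 8663359 to 8667256, minus strand), stayed between 0.567 and 0.986 FPKM over the time course. Heyl, a related gene of smooth muscle (chromosome 4, 123233556 to 123249875, plus strand), was at no more than 0.0582 FPKM and was listed at 0 at 24 and 48 h. Hes1 made up at least 90.0% of the summed level of the 4 targets at each of the 7 timepoints.

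The receptors moved later than the Delta ligands, which had passed the 2-fold rule by 24 h. Notch3, on chromosome 17 (32120820 to 32166852, minus strand), is best known from mural cells of vessels and was the most abundant of the 3 receptors in each of the 15 conditions. Its levels were 6.55, 7.30, 9.75, 8.55, 14.9, 27.4 and 25.3 FPKM at 0, 24, 36, 48, 60, 72 and 96 h. The first 4 timepoints lie below 10 FPKM and the last 3 above it. Notch2, a broadly expressed receptor on chromosome 3 (98013527 to 98150361, plus strand), was at 3.0, 3.66, 5.68, 7.08, 8.79, 12.9 and 13.8 FPKM, each value above the one before. Between 0 and 96 h Notch2 rose 4.58-fold and Notch3 3.86-fold. Notch1, the receptor of most early embryonic Notch signalling, on chromosome 2 (26457903 to 26516663, minus strand), was at 5.55, 6.28, 5.79, 8.25, 7.80, 9.89 and 5.21 FPKM. Its highest and lowest timepoints were 1.90-fold apart, and it was not counted as changed. The summed receptor level was 15.1 FPKM at the start and 50.2 FPKM at 72 h.

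**Figure D2:**
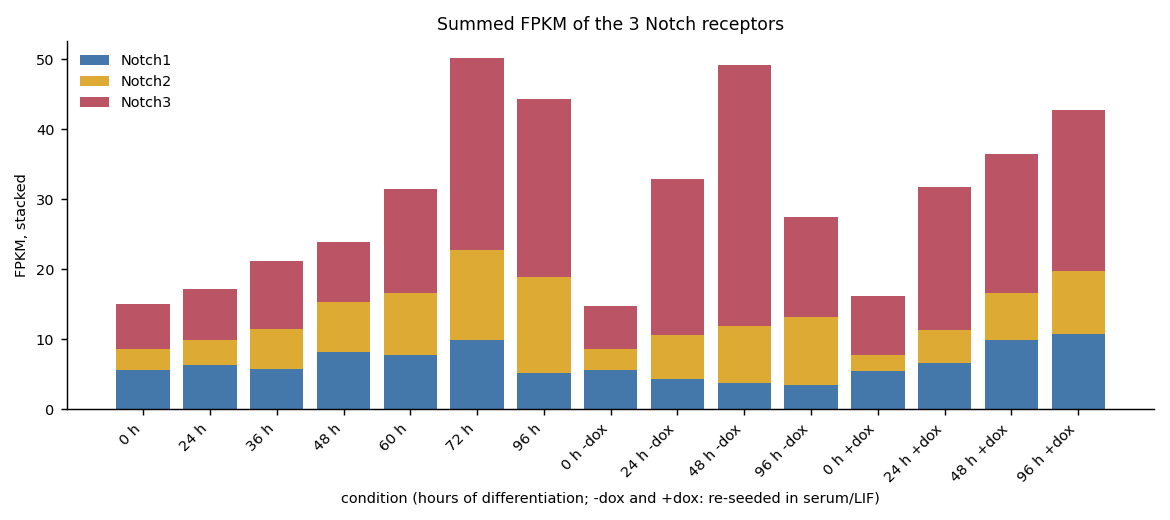
Stacked FPKM of Notch1 (blue), Notch2 (yellow) and Notch3 (red) in each of the 15 conditions, 1 pooled value per gene and condition. The sum reaches 50.2 FPKM at 72 h and 49.2 FPKM in 48 h –dox, and Notch3 makes up 75.8% of the latter.

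Re-seeding in serum/LIF without dox was compared with the same cells before re-seeding. The 2 conditions of each pair differ in medium, in 48 h of culture and possibly in feeders, and these cannot be told apart within a pair. Cells kept in N2B27 to 72 and 96 h match 24 h and 48 h –dox in total time, and their values are given below. From undifferentiated cells, 3 of the 10 genes changed, 7 of which reached 1 FPKM, against a background of 22.1%. Dll1 rose from 0.527 FPKM in 2i/LIF to 3.90 FPKM in 0 h –dox, Jag1 fell from 5.00 to 1.26 FPKM and Hes1 fell from 83.7 to 33.5 FPKM. The sum of the 11 fibroblast genes went at the same time from 793.9 to 6.78 FPKM, and their part was not tested. No receptor passed the 2-fold rule, and the log2 ratios were 0.02 for Notch1, -0.02 for Notch2 and -0.09 for Notch3.

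After 24 h of differentiation 4 of the 10 changed on re-seeding, 8 of which reached 1 FPKM, against a background of 25.5%. After 48 h it was 5 of the 10, 7 of which reached 1 FPKM, against 26.8%. Notch3 rose from 7.30 FPKM at 24 h to 22.3 FPKM in 24 h –dox, and from 8.55 FPKM at 48 h to 37.3 FPKM in 48 h –dox, its highest value in the 15 conditions. Hes1, which was near its low point at these times, rose to 38.4 and 44.0 FPKM, by 1.49 and 1.43 on the log2 scale. Hey1 rose at 24 h, from 0.567 to 1.5 FPKM, and Jag1 fell at 24 h, from 3.24 to 1.43 FPKM. The ligands that peak in mid-differentiation went down. At 48 h Dll1 fell 11.3-fold, from 11.1 to 0.989 FPKM, and Dll3 fell 3.43-fold, from 25.7 to 7.48 FPKM. Notch1 fell 2.16-fold there, from 8.25 to 3.82 FPKM. The sum of the formative genes was also lower after re-seeding, going from 806.3 FPKM at 48 h to 162.7 FPKM in 48 h –dox. With 1 FPKM added to the values, Jag1 and Hey1 were no longer counted at 24 h, nor Notch1 at 48 h. Cells kept in N2B27 to 72 h had Notch3 at 27.4, Hes1 at 66.9, Hey1 at 0.986 and Jag1 at 1.28 FPKM. Those kept to 96 h had Notch3 at 25.3, Hes1 at 58.3, Dll1 at 3.90, Dll3 at 7.39 and Notch1 at 5.21 FPKM. Their formative sum was 174.9 FPKM. Each value lies on the same side of the 24 or 48 h value as the –dox value does. The parts of time and medium were not tested.

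After 96 h of differentiation 3 of the 10 changed on re-seeding, 8 of which reached 1 FPKM, against a background of 23.6%. Dll1 fell from 3.90 to 1.17 FPKM and Hes1 from 58.3 to 24.4 FPKM, while Jag1 rose from 1.39 to 3.72 FPKM, a call that is lost with 1 FPKM added to the values. Hes1 was thus lower after re-seeding at 0 and 96 h and higher at 24 and 48 h, and its 4 –dox values, 33.5, 38.4, 44.0 and 24.4 FPKM, lie closer together than its values before re-seeding. In 96 h –dox the sum of the 11 fibroblast genes was 152.1 FPKM, against 29.8 FPKM at 96 h. These genes did not all move the same way. Col1a2 rose from 13.6 to 86.0 FPKM and Col1a1 from 5.64 to 33.2 FPKM. Thy1 fell from 3.96 to 0.222 FPKM and Dcn from 1.76 to 0.791 FPKM. The part of fibroblasts in the Jag1 value was not tested. Hes5 was at 1.28 FPKM after re-seeding and 1.29 FPKM before.

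**Figure D3:**
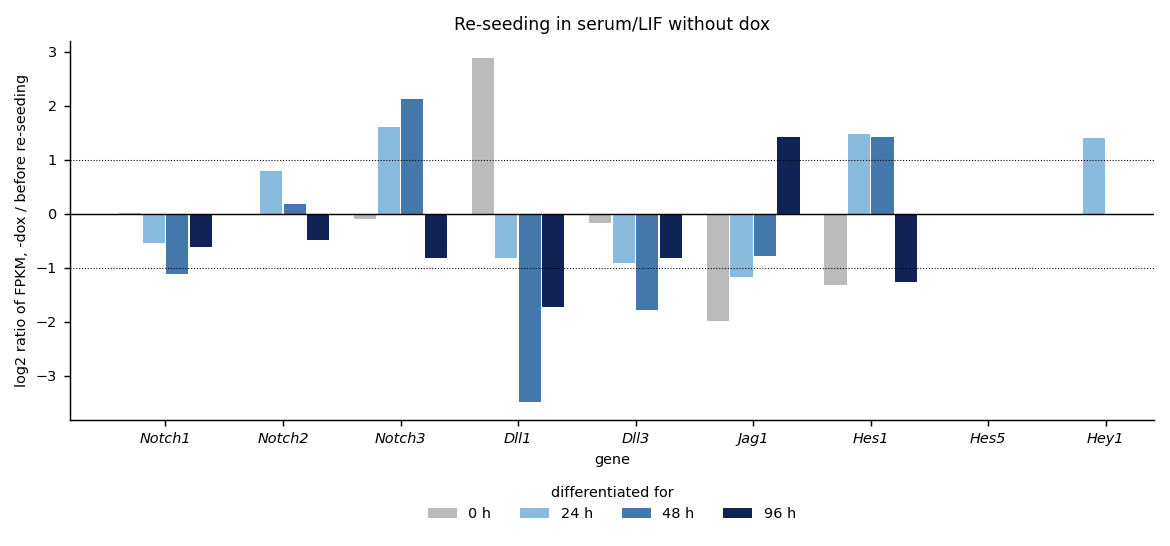
Log2 ratio of FPKM in –dox to FPKM at the same timepoint before re-seeding, for cells differentiated for 0 (grey) to 96 h (dark blue), with dotted lines at a 2-fold change. Bars are left out where neither value reached 1 FPKM, and no error can be given. Hes1 is below 0 for 0 and 96 h (-1.32 and -1.26) and above it for 24 and 48 h (1.49 and 1.43).

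The response to OSKM was read from +dox against –dox cells of the same differentiation time. In cells re-seeded after 0 or 24 h, 0 of the 10 genes changed, of which 7 and 8 reached 1 FPKM, against a background of 9.23% and 6.27%. After 48 h it was 2 of the 10, Notch1 and Jag1, with 7 reaching 1 FPKM and a background of 13.0%. After 96 h it was 3 of the 10, Notch1, Dll3 and Hes5, with 8 reaching 1 FPKM and a background of 17.7%. The median log2 ratio over the members that reached 1 FPKM was -0.07 at 48 h and -0.23 at 96 h, and -0.02 and -0.01 over all genes that did.

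Notch1 was the only member counted as changed at more than 1 of the 4 times. Its –dox levels after 0, 24, 48 and 96 h were 5.63, 4.31, 3.82 and 3.43 FPKM, each lower than the one before. Its +dox levels were 5.53, 6.55, 9.86 and 10.8 FPKM, so that the arms moved apart with time of differentiation. The 4 log2 ratios of +dox to –dox, in order of time, were -0.02, 0.60, 1.37 and 1.66. The 48 and 96 h +dox values also lie above the 48 and 96 h timepoints, which were at 8.25 and 5.21 FPKM. Notch2 had log2 ratios between -0.41 and -0.11, with the +dox value the lower at each time.

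Notch3 did not pass the 2-fold rule at any time. Its –dox levels were 6.17, 22.3, 37.3 and 14.3 FPKM after 0, 24, 48 and 96 h, and its +dox levels were 8.33, 20.4, 19.9 and 23.0 FPKM. The log2 ratios of +dox to –dox were -0.91 at 48 h and 0.68 at 96 h, opposite in sign. Among its –dox values the 48 h value is the highest, while the 24, 48 and 96 h +dox values lie between 19.9 and 23.0 FPKM. Of the summed receptor level, Notch1 made up 7.77% in 48 h –dox and 27.0% in 48 h +dox.

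Jag1 was at 1.26, 1.43, 1.24 and 3.72 FPKM in –dox and at 1.44, 1.68, 3.32 and 2.91 FPKM in +dox. The 48 h pair differs 2.69-fold, and the 96 h pair has both values near 3 FPKM. At these low levels 1 FPKM added to both values brings the 48 h difference under 2-fold, and with a limit of 3-fold neither Notch1 nor Jag1 is counted at 48 h. Dll1 was at 3.91, 4.56, 0.989 and 1.17 FPKM in –dox and at 6.49, 6.22, 1.49 and 0.627 FPKM in +dox, with no 2-fold difference. In both arms Dll1 was lower after 48 and 96 h than after 0 and 24 h of differentiation. Dll3 passed the 2-fold rule at 96 h alone, where the –dox value was 4.19 FPKM and the +dox value 1.87 FPKM.

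Hes1, the abundant target, did not pass the 2-fold rule with OSKM at any time. Its +dox levels were 32.4, 30.3, 41.6 and 32.8 FPKM after 0, 24, 48 and 96 h, against –dox levels of 33.5, 38.4, 44.0 and 24.4 FPKM. The log2 ratios ran from -0.34 to 0.43. Hes5 fell at 96 h from 1.28 FPKM in –dox to 0.216 FPKM in +dox, and in the other –dox and +dox conditions it was at or under 0.226 FPKM. With 1 FPKM added to the values, or with a minimum of 5 FPKM, Notch1 alone was counted at 96 h. The sum of 8 neurectoderm genes, the lineage in which Hes5 is best known, was 56.6 FPKM without and 22.0 with dox at this time. Tubb3 made up 31.7 and 7.38 FPKM of it, and the other 7 summed to 24.8 and 14.6 FPKM. Among these, Pax6 went up from 2.23 to 4.63 FPKM and Nes went down from 9.31 to 5.99 FPKM. The sum of the 11 fibroblast genes was 152.1 FPKM without and 25.3 FPKM with dox. The part of either cell type in these differences was not tested. Heyl was at 0.379 FPKM in 48 h –dox, its highest value, and was listed at 0 in 6 of the 15 conditions.

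**Figure D4:**
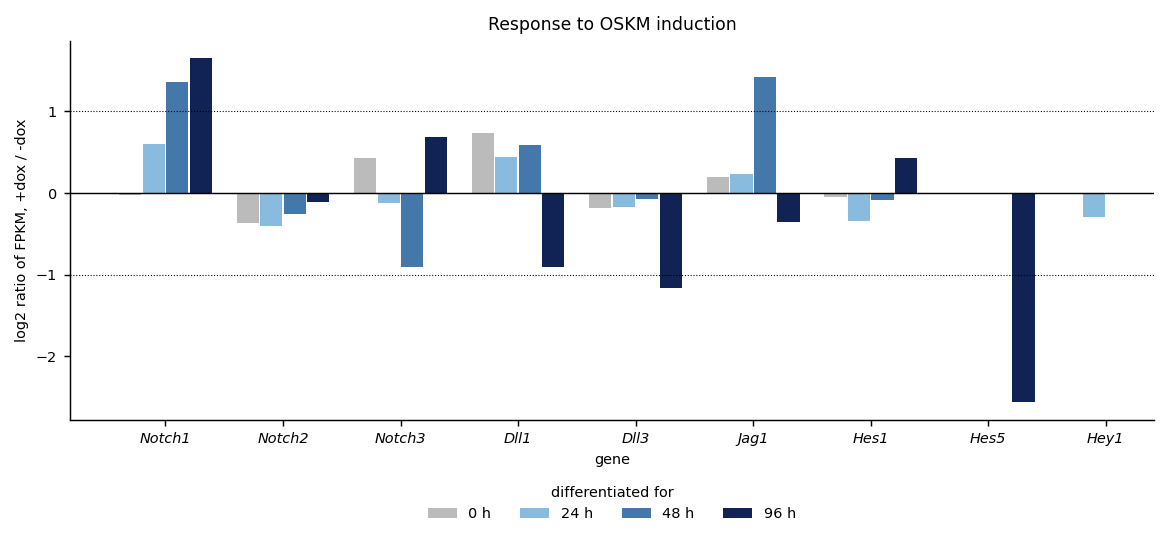
Log2 ratio of FPKM in +dox to FPKM in –dox for cells differentiated for 0 (grey) to 96 h (dark blue) before re-seeding, with dotted lines at a 2-fold change. Bars are left out where neither value reached 1 FPKM, and no error can be given. Notch1 goes from -0.02 at 0 h to 1.66 at 96 h, and Jag1 stands out at 48 h with 1.43.

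Other genes of the pathway were followed as a list of 51, all present in the table, of which 46 reached 1 FPKM in some condition. Over the time course 25 of the 51 changed between some pair of timepoints, which is 56.8% of the 44 that reached 1 FPKM, against the background of 60.7%. Between 0 and 24 h 2 were higher, Rbpj and Hes6, and 5 lower, and between 0 and 48 h 5 were higher and 5 lower, with Adam10, the protease of the first receptor cut, at 7.05 FPKM at 48 h from 15.2 FPKM. Between 0 and 96 h, 9 were higher and 5 lower, 32.6% of the 43 that reached 1 FPKM, against 33.3%. The shares at 24 and 48 h were 17.9% and 24.4%, against 23.0% and 29.2%. Hes6, a Hes family member that opposes Hes1, was at 5.13, 28.9, 70.2, 58.3, 56.4, 74.5 and 27.0 FPKM in order of time. Hes6 was thus high both at 36 h, when Hes1 was lowest, and at 72 h, when Hes1 was high as well. Dtx4, of the Deltex family of ubiquitin ligases that act on Notch, rose from 0.823 to 11 FPKM between 0 and 96 h, and its relative Dtx3 rose from 15.1 to 43.5 FPKM. Maml1, a Mastermind co-activator, rose from 5.88 to 12.1 FPKM. Kat2b, an acetyltransferase that works with the nuclear complex, fell 6.90-fold, from 23.1 to 3.35 FPKM. Rfng, a Fringe glycosyltransferase that modifies Notch receptors, fell from 13.4 to 5.68 FPKM. Dtx1 was lower at 96 h, at 6.97 FPKM from 15.7, but did not decline steadily. It was at 6.61 FPKM at 24 h, 2.38-fold below 0 h, and at 17.0 FPKM at 36 h.

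Rbpj, the DNA-binding partner of all Notch receptors, was between 16.0 and 47.5 FPKM in the time course, highest at 24 h, 2.28-fold above 0 h. Its –dox levels after 0, 24, 48 and 96 h were 75.2, 49.1, 26.4 and 20.9 FPKM. With OSKM it was at 58.3 FPKM in 48 h +dox, 2.21-fold above –dox, and at 15.7 FPKM in 96 h +dox. After 48 h the list had 4 genes higher and 2 lower in +dox, 6 of the 43 that reached 1 FPKM, which is 14% against the background of 13.0%, and besides Rbpj the gene above 10 FPKM was Dtx1, which rose from 3.78 to 11.8 FPKM. After 96 h 3 were higher and 3 lower, 13.6% of 44, against 17.7%. Dlk1, a secreted and membrane-bound relative of the Delta ligands that lacks their activating domain, went from 88.8 FPKM without dox to 7.59 FPKM with it, and Numbl, a homologue of the Notch inhibitor Numb, from 26.8 to 59.5 FPKM. After 0 h of differentiation 2 were higher and 2 lower in +dox, and after 24 h 2 were higher and 0 lower, which is 10.0% and 4.88% of those that reached 1 FPKM, against 9.23% and 6.27%. The largest of these levels was that of Spen, a co-repressor that binds Rbpj, which fell from 23.8 to 10.2 FPKM after 0 h.

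On re-seeding without dox the same list had 8 genes higher and 3 lower after 0 h of differentiation, 13 and 2 after 24 h, 7 and 6 after 48 h, and 7 and 4 after 96 h. Of those that reached 1 FPKM these are 26.8%, 38.5%, 31.7% and 25.0%, beside backgrounds of 22.1%, 25.5%, 26.8% and 23.6%. After 0 h the genes above 10 FPKM that rose were Rbpj, Spen, Dtx3, Hes6 and Mib2, a ubiquitin ligase that makes ligands active, and Adam10 fell 2.11-fold from 15.2 FPKM. Jag2, the other Jagged ligand, rose from 1.78 to 10.6 FPKM at 24 h, and Dlk1 from 0.978 to 11.7 FPKM. Jag2 was above Jag1 in each of the 8 re-seeded conditions, and also at each timepoint of the time course from 36 h on, but not at 0 and 24 h. Psen2, Maml1, Spen, Numbl, Dtx1 and Dtx3 rose at 24 h as well, by 2.07- to 2.24-fold, and Adam10 and Rfng fell. At 48 h Psen2, a catalytic subunit of gamma-secretase, rose from 6.73 to 22.2 FPKM, and Furin, which cuts the receptors during their transport, rose from 3.62 to 17.6 FPKM. Maml1 and Numbl rose there too, while Rfng, Kat2b, Dtx1 and Dtx2 fell. Hes6 fell there from 58.3 to 11.1 FPKM, together with Dll1 and Dll3. After 96 h Dlk1 rose from 1.57 to 88.8 FPKM, Numb, the cell fate determinant that inhibits Notch, rose from 10.3 to 21.3 FPKM, and Dtx4 and Hes6 fell.

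The profiles of the members across the 15 conditions differed from each other. The closest pair was Notch2 and Notch3, with a Pearson's r of log2(FPKM + 1) of 0.75, and Dll1 and Dll3 had 0.62. Outside the pathway, the genes most like a member were taken from the 9069 genes that reached 10 FPKM. The profile of Notch2 was closest to those of Mpdz, Fgfr2 and Arid2, with r of 0.97, 0.97 and 0.96. Fndc3c1, Tagln and Syt13 were closest to Notch3, with r of 0.95, 0.93 and 0.92. For Dll1 they were Nelfa, Ecsit and Mina (0.95, 0.93 and 0.92), and for Dll3 Ppip5k2, Asf1a and Mtap7d3 (0.94, 0.93 and 0.93). The best matches of Hes1 were Pter, Tacc1 and Zscan26 (0.85, 0.85 and 0.82), and those of Jag1 were Fam3c, Cxcl1 and Tbl1xr1 (0.84, 0.83 and 0.83). These are the highest of 9069 values for each member over 15 points that share a time axis. Ranked by Spearman's correlation instead, at most 1 of the 3 genes was the same for any of these members.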

How the data were processed

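RNA-seq of polyadenylated RNA was analysed for 30 samples in 15 conditions, grouped by their titles. Per the paper's methods, the authors mapped reads to mm10 with TopHat 2.0.14 and Gencode vM4, quantified transcripts of at least 200 bp of 6 biotypes with Cufflinks 2.2.1, and deposited 1 FPKM value per gene and condition from Cuffdiff, which combined both replicates. The library normalization is not given in the sources used here. Low values of long genes fall near multiples of a step in some conditions but not in all, so reads were not recovered and the depth is unknown. The number of genes listed at 0 differed between conditions. It was lowest in 24 h –dox, with 2756, and 0 h –dox, with 3282, and highest in 96 h +dox, with 5090. The deposited sums ran from 603278 to 832607 FPKM, and median-ratio factors over 14518 genes from 0.990 to 1.03. Values were used as deposited. Columns with the authors' own calls (5) hold their groups of dynamic and OSKM-responsive genes and were not used.

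Ratios had no pseudocount. Correlations used log2(FPKM + 1). The members, lists and rules were chosen with earlier results of these data known. Named are the 10 members, genes of the pathway list that changed and reached 10 FPKM, and for each member reaching 5 FPKM the 3 most like genes reaching 10 FPKM. The most like genes of Notch1 are not reported here. Notch4, Hey2 and Nrarp were named after their values were seen. Positions come from Gencode M21 on mm10. Alternatives were tried for the minimum, the fold, the pseudocount, the scaling, the timepoints and the correlation. Python 3.11.15, numpy 2.4.6, pandas 2.3.3 and matplotlib 3.10.9 were used.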

Additional observations from a re-analysis of the deposited data

Results flagged for a closer look

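Genes are given here whose ratio under the same contrast was at least 1.5-fold in opposite directions at different differentiation times. Each rests on 1 pooled value per condition, and the differences between times were not tested.

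The log2 ratio of +dox to –dox of Notch3 was -0.91 at 48 h and 0.68 at 96 h. That of Dll1 was 0.73 at 0 h and -0.91 at 96 h, with both 96 h values under 2 FPKM.

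In –dox cells against the same timepoint before re-seeding, the log2 ratio of Notch3 was 2.13 at 48 h and -0.83 at 96 h. The ratio of Dll1 was 2.89 at 0 h and -3.49 at 48 h. Jag1 had 1.42 at 96 h and -1.99 at 0 h, the timepoint with the highest sum of fibroblast genes, whose part was not tested. For Hes1 it was 1.49 at 24 h and -1.32 at 0 h.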

How the results depend on the processing

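Counts of changed members were recomputed under other minimums, folds, scaling and timepoints, and 51 of 72 counts stayed within 1.5 times the count given above. The 2 alternatives on timepoints were added after seeing the data. Median-ratio scaling moved no count beyond that and no log2 ratio by more than 0.0379. With no minimum level, 1 member changed with dox after 0 h and 1 after 24 h, and 5 and 8 changed on re-seeding after 0 and 48 h. At 1.5-fold, dox changed 1, 1, 4 and 5 members after 0, 24, 48 and 96 h, and re-seeding changed 7 after 24 h and 6 after 96 h. At 3-fold, dox changed 0 after 48 h, and re-seeding changed 1, 3 and 1 after 24, 48 and 96 h. With a minimum of 5 FPKM, dox changed 1 after 48 h and 1 after 96 h, and re-seeding 2 after 24 h and 1 after 96 h. With 1 FPKM added, dox changed 1 after 48 h and 1 after 96 h, and re-seeding 2 after 24 h. These settings admit or remove members at low levels or near the fold limit by construction. Of 164 log2 ratios recomputed with 1 FPKM added or with scaling, 0 of those counted as changed turned their sign. That outcome was fixed in advance and shows nothing about the results. Adding 1 FPKM to both values cannot turn a sign, and scaling moved no ratio by more than 0.0379. No paired analysis was possible because each column combines both replicates, and for the same reason no replicate could be left out in turn.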

Other observations

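Nrarp, a feedback inhibitor that Notch induces in many tissues, was listed at 0 in 14 of the 15 conditions and at 0.0292 FPKM at 48 h, so it gave no readout of the pathway here. Dlk1 and Hey2 each had their highest value of the 15 conditions in 96 h –dox. Dlk1 was at 88.8 FPKM there, against a median of 2.63 FPKM over the 15 conditions, and Hey2, a Hey repressor of heart and vessels, was at 3.77 FPKM, against a median of 0.346. Notch4, the receptor best known from endothelium, had 0.159 FPKM at 96 h and 1.13 FPKM after re-seeding without dox. Its median over the 15 conditions was 1.08 FPKM, and it was highest in 0 h –dox, at 3.41 FPKM. Of 6 endothelial genes, Cdh5 led in 96 h –dox with 13.1 FPKM and the other 5 summed to 2.70 FPKM. Pecam1, which pluripotent cells also express, made up 56.6 FPKM in 0 h –dox, where the other 5 summed to 1.48 FPKM. The part of such cells was not tested.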
